A study of Homo sapiens with 6 samples.

Results

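The mitochondrial ribosomal protein genes are the nuclear genes for the proteins of the ribosome inside mitochondria, whose symbols begin with MRPL or MRPS, named for the large and the small subunit. MRPS30 and MRPS18A nevertheless sit in the large subunit, so counts by symbol are not exactly counts by subunit. The genes were chosen by symbol alone among those with a value in all 6 libraries, with pseudogenes left out. Whether the product of each, such as MRPS36, is part of the ribosome was not checked. This gave 74 genes, 46 MRPL and 28 MRPS, of 19493 genes with a value. The symbols MRPL12 and MRPL45 had no matching gene with a value and are not analysed here.

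The mitochondrial ribosome translates the few messenger RNAs encoded by mitochondrial DNA, all of which specify subunits of the respiratory chain and ATP synthase. Its ribosomal RNAs come from the mitochondrial genome, whereas its proteins are encoded in the nucleus, made in the cytosol and imported. Some descend from bacterial ribosomal proteins and others have no bacterial counterpart, and defects in several of them cause inherited disorders of oxidative phosphorylation.

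RNA was sequenced from HaCaT, an established line of immortalised human skin keratinocytes, engineered to express a CPD photolyase from the marsupial Potorous tridactylus. This enzyme reverses cyclobutane pyrimidine dimers, a main lesion made by UV light in DNA, when it absorbs visible light, and all 3 groups of 2 libraries carried it. In the first group (active photolyase) cells received UVC at 254 nm and a dose of 15 J/m2, and white light for 2 h to activate the enzyme. In the second (UVC) cells received the same dose with the photolyase inactive. Cells of both groups were harvested 6 h after irradiation, and the third group (control) was untreated with the photolyase inactive. White light was given only in the active photolyase group, so effects of the light and of the photolyase cannot be told apart. Whether the paired libraries of a group are separate cultures is not stated in the labels, and neither is whether the line is 1 clone. The p-values therefore reflect only how far these libraries scatter, and that scatter may be technical.

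Total counts ran from 57669389 to 70005705 per library. All 10 keratinocyte markers passed the detection filter. Their summed scaled level was 29925.4 to 29933.4 cRPKM with active photolyase, 18290.9 to 18696.3 after UVC and 31186.1 to 32176.6 in control. Few markers of other cells passed that filter: 1 of 7 for melanocytes, 2 of 9 for fibroblasts and 4 of 11 for immune cells, and TYR, MS4A1 and NKG7 had no count in any library. The summed level of the immune markers was 188.6 to 199.2 scaled cRPKM with active photolyase, 182.0 to 183.4 after UVC and 133.0 to 146.0 in control. Fibroblast markers summed to 9.51 to 9.88, 8.55 to 8.84 and 7.62 to 8.82 in the same order of groups, and melanocyte markers to 1.35 to 1.49, 1.49 to 1.75 and 2.19 to 2.25. In bulk RNA, fewer cells of a type and less RNA per cell cannot be told apart, and the part of these sums in the results below was not tested.

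Levels are given as cRPKM, reads per length of sequence that could be counted and per library total, divided by a scaling factor per library (TMM, the trimmed mean of M values), here called scaled cRPKM. TMM sets the bulk of transcripts equal between libraries, so a rise or fall is relative to that bulk. The 11926 genes that reached 1 cRPKM in 2 or more libraries were tested, and a gene was called where edgeR's quasi-likelihood test gave an adjusted p under 0.05 over all of these. Of the 74 genes 73 were tested, and the lowest count among them in any library was 480, for MRPL1. The exception was MRPL30, a large subunit protein, with 0 and 0 counts with active photolyase, 0 and 1 after UVC and 0 and 1 in control. The deposited count and cRPKM of MRPL30 imply an effective length of 36 bases, against a median of 1220 over the tested members and 438 for the shortest, MRPS18C. With so short a length, a count of 0 allows a level of up to 1.21 scaled cRPKM in UVC replicate 1 (3 counts, counting error only), and the level of MRPL30 cannot be judged.

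Promoter stretches of 5 members are shown first, because the members moved in opposite directions after UVC and these stretches belong to members of each kind. They lie before the transcription start as RefSeq places it (build GRCh38.p14), read 5′ to 3′ along the gene, and hold no annotated exon. Their last base is 1 before the start in MRPS14, 13 in MRPL3, 22 in MRPS34, 59 in MRPL36 and 60 in MRPL44. The MRPS34 stretch has 51 bases and the others 120, so they are unlike parts of their promoters and motifs can lie outside them. MRPS34 (chr16:1773156-1773206 on the minus strand) and MRPS14 (chr1:175023426-175023545 on the minus strand) are 2 genes that rose after UVC. MRPL44 (chr2:223957284-223957403 on the plus strand), MRPL36 (chr5:1799896-1800015 on the minus strand) and MRPL3 (chr3:131502984-131503103 on the minus strand) are 3 genes that fell on the TMM scale. Capitals mark the ETS motif CCGGAAG, the letters bound by GABP, or the NRF1 motif, on either strand.
MRPS34: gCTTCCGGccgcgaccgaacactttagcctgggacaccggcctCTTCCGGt
MRPS14: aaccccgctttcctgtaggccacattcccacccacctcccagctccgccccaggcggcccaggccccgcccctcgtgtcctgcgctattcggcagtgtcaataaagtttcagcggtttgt
MRPL44: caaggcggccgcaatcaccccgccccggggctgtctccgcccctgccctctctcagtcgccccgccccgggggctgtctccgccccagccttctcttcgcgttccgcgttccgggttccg
MRPL36: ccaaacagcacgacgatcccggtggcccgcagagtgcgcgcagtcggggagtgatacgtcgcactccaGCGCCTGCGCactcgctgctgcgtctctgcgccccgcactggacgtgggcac
MRPL3: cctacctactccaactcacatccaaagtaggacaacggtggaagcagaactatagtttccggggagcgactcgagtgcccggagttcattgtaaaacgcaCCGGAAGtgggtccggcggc
The ETS letters stand 2 times in the MRPS34 stretch and once in that of MRPL3. Whether such letters go with the direction of change was not tested. The MRPL36 stretch holds 1 NRF1 match, and neither the MRPS14 nor the MRPL44 stretch holds either motif.

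Across the promoter windows of 300 bases that RefSeq lists, 64 of the 73 tested members had 80 windows. The ETS motif was in 38.8% of these windows, against 17.1% of the 13734 windows of all tested genes and 10.3% of all 35116 windows. The YY1 motif AAGATGGC was in 26.2% of the members' windows, against 4.85% for tested genes and 2.89% for all windows. GABP and YY1 are textbook regulators of nuclear genes for mitochondrial proteins. The NRF1 motif was in 10% of the members' windows and 9.8% of the tested genes' windows, the E-box CACGTG in 10% and 9.22%, and the CCAAT box (CCAAT) in 33.8% and 35%. No motif lies wholly within another, and each was searched on both strands. Members with the ETS motif had a median log2 fold change after UVC of 0.11, and those without it one of 0.15. With and without the YY1 motif the medians were 0.11 and 0.14, and for the NRF1 motif 0.03 and 0.14. Those for the E-box were -0.00 and 0.14. The widest gap was that of the CCAAT box, with -0.04 in members with it and 0.29 in those without. These are counts of letters and medians with no test.

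Levels of the 73 tested genes spanned more than an order of magnitude. MRPS24, a small subunit protein and counterpart of bacterial S3, had the highest mean level over all libraries at 105.8 scaled cRPKM, followed by MRPL21 at 74.2 and MRPL32 at 59.8. The lowest were MRPS14 at 6.46, MRPL1 at 6.2 and MRPS25 at 6.13. These 3 lay within each other's spread between libraries. The 74 genes together held 0.2425% and 0.2422% of all counts with active photolyase, 0.3105% and 0.3139% after UVC, and 0.2258% and 0.2152% in control. Their summed scaled level was 2206.8 and 2191.9 cRPKM with active photolyase, 2276.3 and 2298.5 after UVC, and 2175.3 and 2071.5 in control. The share and the sum were highest after UVC on both scales, with no overlap between groups. The gap was wider in the deposited cRPKM, which is scaled to library totals, with sums of 2105.8 and 2098.0 with active photolyase, 2687.1 and 2717.1 after UVC, and 1929.5 and 1832.2 in control. The ratio of the summed MRPL level to the summed MRPS level was 1.78 and 1.73 with active photolyase, 1.65 and 1.70 after UVC, and 1.74 and 1.73 in control, so it was lowest in the UVC libraries. This ratio leans on MRPS24, the highest member, which had 135.9 and 129.6 after UVC and 79.2 and 76.7 in control. The summed MRPS level was 860.5 and 850.1 after UVC and 794.0 and 757.6 in control. The median log2 fold change after UVC was 0.17 for MRPL and 0.00 for MRPS genes, so the ratio does not describe the typical member.

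UVC against control compares irradiated with untreated cells, both with the photolyase inactive. Of the 73 genes 36 were called higher and 20 lower, and 17 were not called, with a median log2 fold change of 0.11. Among all tested genes 42.5% were called higher and 43.1% lower, with a median of 0.00. The members' changes were small: 9 rose and 2 fell by at least 1.5-fold, where 23.4% and 29.4% of all genes did. By at least 2-fold, 1 rose (MRPL34) and 1 fell (MRPL44), where 9.89% and 18.6% of all genes did. Of 45 MRPL genes 26 were called higher and 11 lower (median 0.17), and of 28 MRPS genes 10 and 9 (median 0.00), where MRPS30 and MRPS18A are among those 9. The split depends on the scaling: with library totals in place of TMM, which moves the median of all genes to 0.42, 59 members were called higher and 3 lower (median 0.53), where 59.5% and 29.7% of all genes were. Measured from the median of all genes, the members' median was 0.11 higher with either scaling but 0.18 higher with a filter of 5 cRPKM and on the other side, at -0.03, with no filter on low values.

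**Figure D1:**
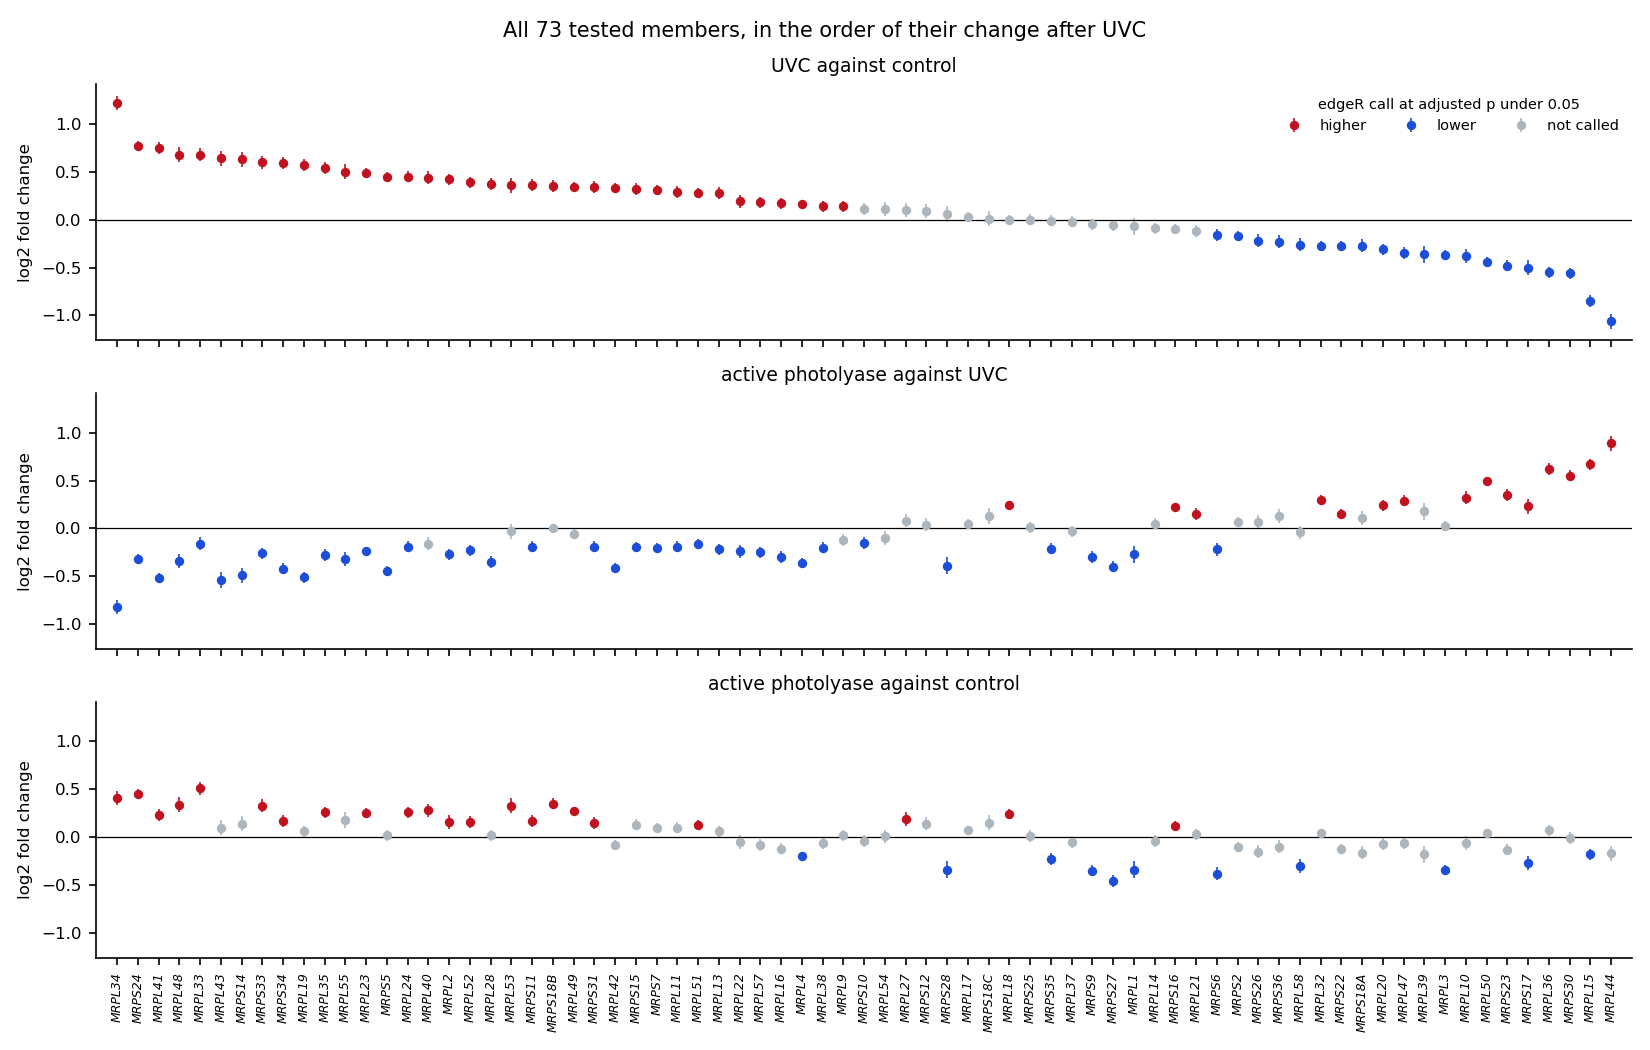
Log2 fold change (vertical axis, TMM scale) of the 73 tested members in each comparison, ordered along the horizontal axis by their change after UVC. Points are edgeR estimates and bars standard errors, with red for called higher, blue for called lower and grey for not called. Changes reach from -1.06 to 1.22 in the top panel, from -0.82 to 0.89 in the middle and from -0.46 to 0.51 at the bottom.

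The rises after UVC were led by MRPL34, a small large subunit protein conserved from bacteria. MRPL34 had 12.6 and 13.2 scaled cRPKM with active photolyase, 22.9 and 22.6 after UVC, and 9.9 and 9.6 in control. Its UVC libraries stood apart above both other groups, with a log2 fold change against control of 1.22 (SE 0.07, edgeR adjusted p = 1.51e-09). An exon of MRPL34 overlaps one of ABHD8 on the opposite strand in GENCODE v29, and the counting's use of strand is not given, so reads of the pair cannot be told apart. MRPS24 had 104.1 and 109.2 scaled cRPKM with active photolyase, 135.9 and 129.6 after UVC, and 79.2 and 76.7 in control, with a log2 fold change of 0.77 after UVC (SE 0.05, edgeR adjusted p = 7.54e-09). Its 3 groups did not overlap, and it overlaps the read-through gene URGCP-MRPS24 on the same strand. MRPL41, which has no bacterial counterpart and is also known to bind the survival protein BCL2, had 40 and 39.2 scaled cRPKM with active photolyase, 56.3 and 57.4 after UVC, and 35.1 and 32.5 in control. Its log2 fold change after UVC was 0.75 (SE 0.06, edgeR adjusted p = 1.69e-08), and no other coding gene overlaps its exons.

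MRPL48 had 14.8 and 13.9 scaled cRPKM with active photolyase, 19.4 and 17.0 after UVC, and 11.8 and 11 in control. MRPL33, a counterpart of bacterial L33, had 57.2 and 51.2 scaled cRPKM with active photolyase, 59.6 and 61.7 after UVC, and 39.0 and 36.9 in control. Both had a log2 fold change of 0.68 after UVC, with standard errors of 0.08 and 0.07. In MRPL33 the active photolyase libraries lay nearer to UVC than to control, while in MRPL48 they lay between the other groups. Of the remaining named rises, MRPL43 (0.64), MRPS14 (0.63), MRPS33 (0.60), MRPS34 (0.59) and MRPL19 (0.57) had log2 fold changes with standard errors of 0.06 to 0.08. MRPS34, a small subunit protein without a bacterial counterpart, had 49.1 and 55.3 scaled cRPKM with active photolyase, 70.3 and 69.6 after UVC, and 48.0 and 44.8 in control. MRPS14, a counterpart of bacterial S14, had 5.91 and 5.81 scaled cRPKM with active photolyase, 8.56 and 7.91 after UVC, and 5.6 and 5.0 in control. In MRPS34 and MRPS14 the UVC libraries lay above the other groups, which lay nearer each other. All 10 named rises were also called with DESeq2. They were called with library totals and limma as well, but library totals move the median of all genes up to 0.42. A rise could hardly lose its call on that scale, which limma shares, so those settings do not check the rises. MRPL43, MRPS14, MRPL19 and MRPL33 overlap exons of a neighbouring coding gene (SEMA4G and TWNK, CACYBP, GCFC2 and BABAM2 in that order).

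**Figure D2:**
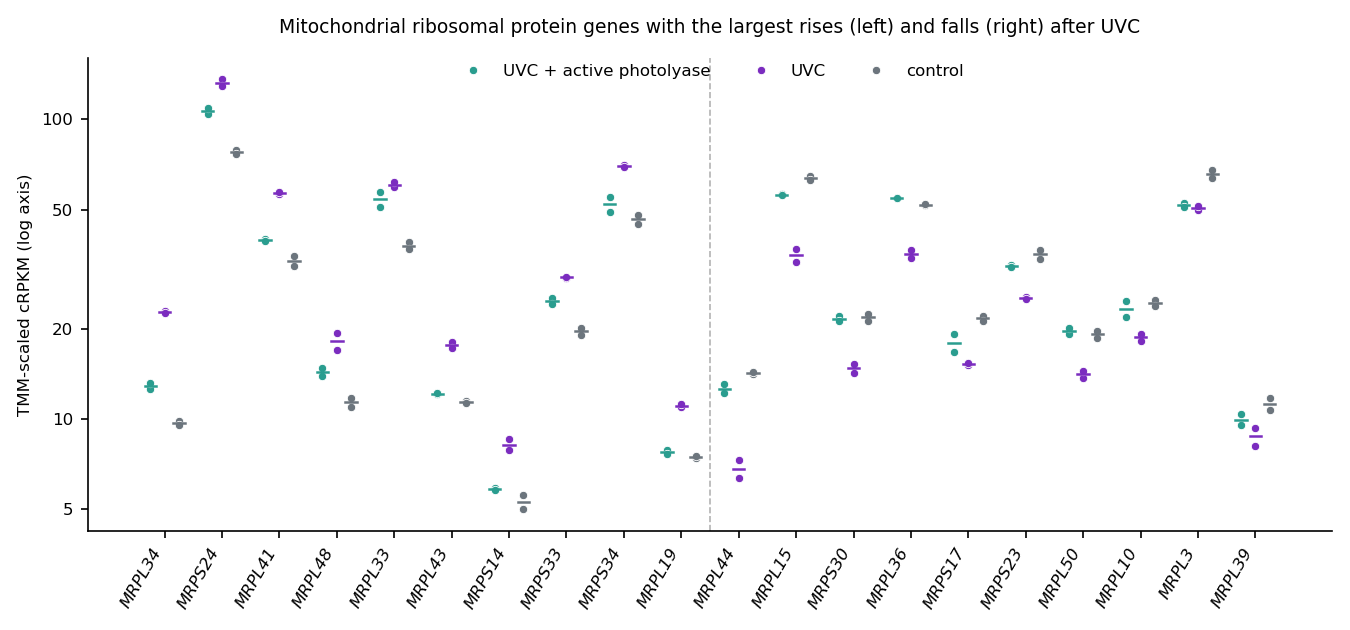
Scaled cRPKM (vertical log axis) of the 10 members with the largest rises and the 10 with the largest falls after UVC, by gene along the horizontal axis. Points are libraries and short bars group means, for active photolyase, UVC and control. MRPL34 stands at 22.9 and 22.6 in the UVC libraries and MRPL44 at 6.37 and 7.32, each apart from the other groups.

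The deepest fall after UVC was that of MRPL44, a large subunit protein with the fold of an RNase III, whose defects cause an inherited cardiomyopathy. MRPL44 had 12.2 and 13.1 scaled cRPKM with active photolyase, 6.37 and 7.32 after UVC, and 14.1 and 14.4 in control. The UVC libraries were lowest without overlap, with a log2 fold change of -1.06 (SE 0.08, edgeR adjusted p = 2.03e-08). MRPL15, a counterpart of bacterial L15, had 56.2 and 56.0 scaled cRPKM with active photolyase, 33.5 and 37.0 after UVC, and 64.7 and 62.6 in control, a log2 fold change of -0.85 after UVC (SE 0.06, edgeR adjusted p = 6.62e-09). MRPS30, which despite its symbol sits in the large subunit, had 22.1 and 21.2 scaled cRPKM with active photolyase, 14.3 and 15.3 after UVC, and 22.4 and 21.3 in control. Its log2 fold change after UVC was -0.56 (SE 0.06, edgeR adjusted p = 9.6e-07), and its active photolyase and control libraries overlapped. These 3 were the only members called lower after UVC with library totals, at -0.64 for MRPL44, -0.44 for MRPL15 and -0.15 for MRPS30.

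The other named falls depended on the scaling. MRPL36, a counterpart of bacterial L36, had 54.5 and 54.8 scaled cRPKM with active photolyase, 34.6 and 36.6 after UVC, and 51.8 and 52.1 in control. Its log2 fold change after UVC was -0.55 (SE 0.06, edgeR adjusted p = 1.08e-06) with TMM and -0.13 with library totals, where it was not called (adjusted p = 0.0528). MRPL36 kept its call with limma, which shares the scale of library totals. MRPS17 (-0.50), MRPS23 (-0.48) and MRPL50 (-0.44) fell with TMM, and were also not called with library totals, at -0.09, -0.07 and -0.03. MRPL10 (-0.38), MRPL3 (-0.37) and MRPL39 (-0.36) were called lower with TMM but had fold changes above 0 with library totals, at 0.04, 0.04 and 0.05. MRPL39 also lost its call with TMM without UVC replicate 1, at -0.23 (adjusted p = 0.0687). MRPL10 is part of the base of the stalk that recruits translation factors, and MRPL3 reaches towards the peptidyl transferase centre. MRPL3 had 52.5 and 50.9 scaled cRPKM with active photolyase, 49.9 and 51.6 after UVC, and 67.7 and 63.6 in control, so its active photolyase and UVC libraries overlapped below control.

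Active photolyase against UVC compares irradiated cells with and without activation of the enzyme. Of the 73 genes 15 were called higher and 38 lower, and 20 were not called, with a median log2 fold change of -0.16. Among all tested genes 39.2% were called higher and 39.9% lower, with a median of -0.04. By at least 1.5-fold, 3 members rose and 1 fell, where 24.2% and 11.7% of all genes did, and no member reached 2-fold in either direction, where 14% and 1.37% of all genes did. Of the MRPL genes 10 were called higher and 23 lower, and of the MRPS genes 5, MRPS30 among them, and 15. With library totals, which move the median of all genes to -0.34, 5 members were called higher and 58 lower, where 27.9% and 58.2% of all genes were.

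The largest rise was that of MRPL44, with a log2 fold change against UVC of 0.89 (SE 0.08, edgeR adjusted p = 2.23e-07). MRPL15 followed at 0.67, MRPL36 at 0.62, MRPS30 at 0.55 and MRPL50 at 0.49, with standard errors of 0.05 to 0.06. These 5 are the only members called higher with library totals as well as with TMM. MRPS23 (0.35) and MRPL10 (0.32) were called higher with TMM but not with library totals, at 0.05 and 0.02. MRPL32, MRPL47 and MRPL18, at 0.30, 0.29 and 0.24 with TMM, were called higher there but had fold changes at or below 0 with library totals, at -0.00, -0.02 and -0.06. MRPL32 is a counterpart of bacterial L32 that a protease of the inner membrane trims before assembly. It had 64.4 and 64.3 scaled cRPKM with active photolyase, 50.2 and 54.2 after UVC, and 64.2 and 61.3 in control, so only the UVC libraries stood apart, below the rest. MRPL18 had 49.6 and 50.7 scaled cRPKM with active photolyase, 41.2 and 43.5 after UVC, and 42.5 and 42.2 in control. In MRPL18 the active photolyase libraries alone stood apart, above both other groups.

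The largest fall against UVC was that of MRPL34, with a log2 fold change of -0.82 (SE 0.07, edgeR adjusted p = 1.28e-07). MRPL43 (-0.54), MRPL41 (-0.52), MRPL19 (-0.51) and MRPS14 (-0.49) followed. MRPS5, a counterpart of bacterial S5, had 21.4 and 20.5 scaled cRPKM with active photolyase, 28.0 and 28.8 after UVC, and 20.8 and 20.6 in control, with a log2 fold change of -0.44 against UVC (SE 0.05, edgeR adjusted p = 6.02e-06). In MRPS5 the active photolyase and control libraries overlapped and the UVC libraries lay above them. MRPS34 (-0.42) and MRPL42 (-0.41) were also called lower than in UVC. MRPL42 had 10.8 and 10.7 scaled cRPKM with active photolyase, 14.5 and 14.2 after UVC, and 11.4 and 11.3 in control. The comparison shares its UVC libraries with UVC against control, so the values of the 2 comparisons are not independent.

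MRPS27 and MRPS28 had another pattern, with the lowest levels with active photolyase. The mean was lowest in that group in 15 members (20.5%), against 18.9% of all genes. MRPS27, a pentatricopeptide repeat protein of the small subunit, had 9.89 and 10.3 scaled cRPKM with active photolyase, 12.8 and 13.8 after UVC, and 14.3 and 13.4 in control. MRPS28 had 9.06 and 10.3 scaled cRPKM with active photolyase, 12.7 and 12.6 after UVC, and 12.3 and 12.1 in control. Only the active photolyase libraries were low in these genes, and the log2 fold changes against UVC were -0.40 for MRPS27 (SE 0.06, edgeR adjusted p = 5.49e-05) and -0.39 for MRPS28 (SE 0.09, edgeR adjusted p = 8.93e-04). MRPS27 was not called after UVC with TMM, at -0.06, and was called higher with library totals, at 0.36.

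Active photolyase against control compares irradiated cells with the enzyme activated and untreated cells. Of the 73 genes 22 were called higher and 11 lower, and 40 were not called, with a median log2 fold change of 0.03. Among all tested genes 33% were called higher and 32.9% lower, with a median of 0.01. No member differed by 1.5-fold in either direction, where 10.9% of all genes were higher and 8.41% lower by that much, and 4.06% and 2.02% by 2-fold. The result depended on the libraries, since without control replicate 2 the members' median was 0.00, against 0.01 for all genes. With library totals, which move the median of all genes to 0.12, 37 members were called higher and 7 lower, where 43.8% and 23.9% of all genes were.

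MRPL33 had the largest rise against control, with a log2 fold change of 0.51 (SE 0.07, edgeR adjusted p = 2.55e-05), followed by MRPS24 at 0.45 and MRPL34 at 0.41. MRPS18B (0.35), MRPL48 (0.34), MRPS33 (0.33), MRPL53 (0.33), MRPL40 (0.28), MRPL49 (0.27) and MRPL24 (0.26) completed the 10 largest rises. MRPL49 had 51.5 and 51 scaled cRPKM with active photolyase, 54.3 and 52.8 after UVC, and 42.5 and 42.4 in control. Exons of MRPL49 overlap those of FAU and SYVN1 on the opposite strand, so its reads and theirs may not be told apart. MRPL24, a counterpart of bacterial L24, had 51.2 and 53.3 scaled cRPKM with active photolyase, 58.8 and 60.4 after UVC, and 45.9 and 41.1 in control. In both MRPL49 and MRPL24, each irradiated library lay above the control libraries. MRPL40 lost its call without active photolyase replicate 1, with an adjusted p of 0.0725.

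MRPS27 had the largest fall against control, with a log2 fold change of -0.46 (SE 0.06, edgeR adjusted p = 2.99e-05). MRPS6 (-0.38), MRPS9 (-0.35), MRPL3 (-0.34), MRPL1 (-0.34), MRPS28 (-0.34) and MRPL58 (-0.30) were called lower as well, and these 7 are the members called lower with library totals too. MRPS17 (-0.27), MRPS35 (-0.23) and MRPL4 (-0.20) were called with TMM, not with library totals. MRPS17 also lost its call without active photolyase replicate 2 (adjusted p = 0.101) and MRPS35 without active photolyase replicate 1 (adjusted p = 0.0531). MRPS9, a counterpart of bacterial S9, had 13.6 and 14.2 scaled cRPKM with active photolyase, 17.0 and 17.1 after UVC, and 18.2 and 17.1 in control. MRPS6, a counterpart of bacterial S6, had 20 and 19.8 scaled cRPKM with active photolyase, 23.3 and 22.8 after UVC, and 26.6 and 25.1 in control. Both were lowest with active photolyase. The MRPS28 call was lost without active photolyase replicate 1 (adjusted p = 0.0562), and MRPS6 overlaps exons of SLC5A3.

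Taking the 3 groups at once, the mean was highest after UVC in 39 members (53.4%), where it was in 44.5% of all tested genes. It was lowest with active photolyase in 15 members (20.5%), against 18.9% of all genes. The mean with active photolyase lay between those of UVC and control in 47 members (64.4%), where it did so in 63.3% of all genes. The 3 groups lay in that order with no overlap of libraries in 34 members (46.6%), against 49.5% of all genes. In all 3 comparisons 61 members (83.6%) stayed under 1.5-fold, where 40.4% of all genes did. No call was made in any comparison for 7 members (9.59%, against 6.05% of all genes). They were MRPL14, MRPL17, MRPL37, MRPL54, MRPS12, MRPS18C and MRPS25. These shares are descriptions, and members share libraries, so they are not independent.

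**Figure D3:**
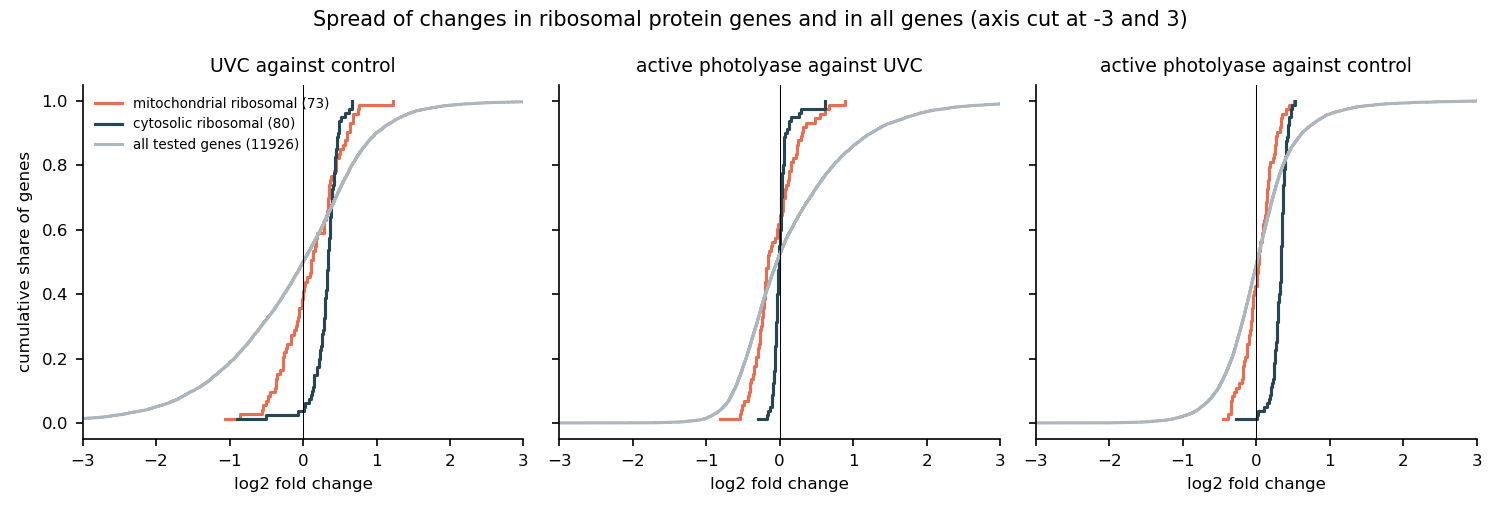
Cumulative share of genes (vertical axis) against log2 fold change (horizontal axis, TMM scale, drawn from -3 to 3) for the 73 mitochondrial ribosomal, 80 cytosolic ribosomal and 11926 tested genes. The members' curve is steeper than that of all genes in each comparison, and the cytosolic curve rises near 0.34 in the left and right panels.

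MRPS12, a counterpart of bacterial S12 at the decoding centre, had 24.6 and 24.8 scaled cRPKM with active photolyase, 24.2 and 23.8 after UVC, and 23.7 and 21.2 in control, and was not called in any comparison. MRPL37, a large subunit protein without a bacterial counterpart, had 37.1 and 36.6 scaled cRPKM with active photolyase, 37.3 and 37.8 after UVC, and 39.7 and 36.4 in control, and was likewise not called. With library totals MRPS12 was called higher after UVC at 0.51 and MRPL37 at 0.40. MRPL11, a stalk base protein, had 19.2 and 19.3 scaled cRPKM with active photolyase, 22.3 and 21.5 after UVC, and 18.3 and 17.7 in control, and rose after UVC by a log2 fold change of 0.29 (SE 0.06, edgeR adjusted p = 2.99e-04). MRPS15, a small subunit protein, rose by 0.32 (SE 0.06, edgeR adjusted p = 9.37e-05). MRPS22, a small subunit protein, was called lower at -0.27 after UVC with TMM and higher at 0.15 with library totals. MRPL58, the peptidyl-tRNA hydrolase also called ICT1 that rescues stalled ribosomes, had 15.5 and 15.4 scaled cRPKM with active photolyase, 15.8 and 15.9 after UVC, and 18.8 and 19.2 in control. Its log2 fold change after UVC was -0.26 (SE 0.07, edgeR adjusted p = 0.00279) with TMM and 0.15 with library totals. The call was also lost with a filter of 5 cRPKM, at -0.14 (adjusted p = 0.0517). Against control MRPL58 was called lower with active photolyase at either scaling.

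The 3 MRPS18 paralogs differ in place, since MRPS18A sits in the large subunit and MRPS18B and MRPS18C in the small subunit. MRPS18A had 44.0 and 44.5 scaled cRPKM with active photolyase, 42.2 and 39.8 after UVC, and 51.7 and 47.3 in control. MRPS18B had 29.6 and 29.5 scaled cRPKM with active photolyase, 30.2 and 28.9 after UVC, and 23.8 and 22.6 in control. MRPS18C had 26.0 and 24.2 scaled cRPKM with active photolyase, 23.6 and 22.1 after UVC, and 22.9 and 22.5 in control. After UVC, MRPS18B was called higher at 0.35, MRPS18C was not called at 0.01, and MRPS18A was called lower at -0.27 with TMM but had a value of 0.14 with library totals. The MRPS18A call was also lost with TMM without UVC replicate 2, at -0.19 (adjusted p = 0.0618). Reads of paralogs and of pseudogenes can be divided between copies, and all 3 have named pseudogenes.

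Members' genes were short. Their median span from first to last annotated base was 11.5 kb and 71.2% of them spanned under 20 kb, where the median of all tested genes was 30.2 kb and 38.1% were under 20 kb. After UVC the median log2 fold change of the 20 members under 5 kb was 0.23, against 0.46 for all genes of that span. For the 10 members over 50 kb it was 0.00, against -0.23 for all genes of that span. With active photolyase against control, the medians were 0.11 for members and 0.30 for all genes under 5 kb, and -0.23 for both over 50 kb. MRPS27, MRPS9, MRPL1, MRPS28 and MRPS6, which were called lower in that comparison, span 101.238, 61.978, 90.271, 111.573 and 69.811 kb. The other members called lower are shorter. MRPS35, MRPL3, MRPL15, MRPL58, MRPL4 and MRPS17 span 45.523, 40.772, 12.692, 8.592, 8.145 and 4.683 kb. MRPL33 and MRPL48, which were called higher, span 216.371 and 77.818 kb. Spearman's correlation between span and log2 fold change over the 73 members was -0.09 after UVC, -0.15 for active photolyase against UVC and -0.30 for active photolyase against control. Over the 11728 genes with a span it was -0.24, 0.02 and -0.44, and these points share their libraries and scaling.

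**Figure D4:**
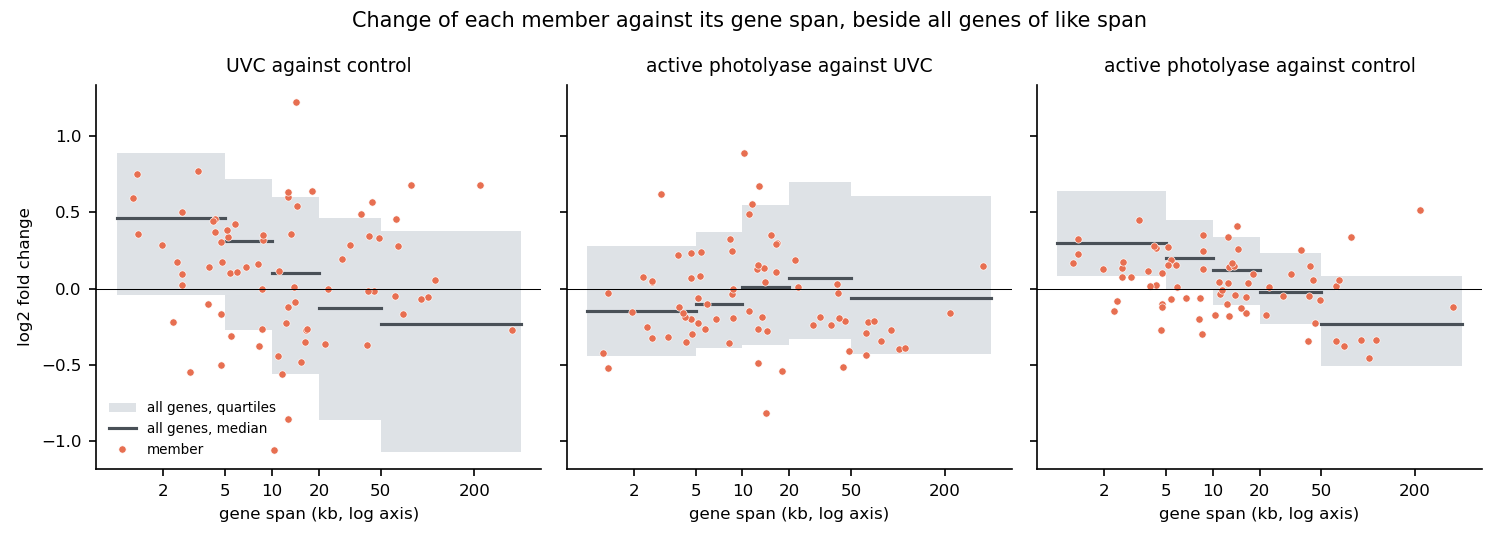
Log2 fold change (vertical axis, TMM scale) of each member against its gene span (horizontal log axis, kb) in the 3 comparisons. Points are members, and the grey boxes and dark lines are the quartiles and medians of all tested genes in 5 bins of span. In the right panel both the members and all genes have a median of -0.23 over 50 kb.

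Exons of 32 of the 74 members overlap those of another coding gene, 21 on the opposite and 11 on the same strand, and 34 members have named pseudogenes. The 23 tested members with neither had 8 rises and 7 falls after UVC, 6 rises and 10 falls with active photolyase against UVC, and 7 rises and 4 falls with active photolyase against control. Their median log2 fold changes were -0.00, -0.04 and -0.01. Over all tested genes rises and falls after UVC were also close in number (42.5% and 43.1%), and a difference of this subset from the other members was not tested. The pseudogene MRPL42P1, which was left out, had 44 and 48 counts with active photolyase, 43 and 43 after UVC and 17 and 16 in control. Members described above with an overlapping coding gene also include MRPS27 (PTCD2), MRPS28 (AC036214.3), MRPS17 (AC092647.5 and NIPSNAP2) and MRPL32 (PSMA2). MRPL47 (ACTL6A), MRPS5 (ZNF514) and MRPL53 (CCDC142) are further cases. So are MRPL11 (PELI3), MRPL37 (AL357673.1, CYB5RL and SSBP3), MRPS12 (SARS2) and MRPS18A (RSPH9). MRPS18C (ABRAXAS1), MRPS22 (COPB2 and PRR23A) and MRPS25 (NR2C2) overlap a coding gene as well.

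Genes that act with the ribosome were counted in the same way, and no difference between lists was tested. Their counts stand against the 42.5% of all genes called higher and 43.1% called lower after UVC, the 39.2% and 39.9% with active photolyase against UVC, and the 33% and 32.9% with active photolyase against control. The assembly genes had shares of 26.1% and 47.8% after UVC, and the translation factors 29.4% and 35.3%. The 5 mitochondrial ribosomal proteins without such a symbol had 4 rises and no fall after UVC (median 0.30), led by PTCD3 at 0.45 and CHCHD1 at 0.39. Of 23 genes for assembly and ribosomal RNA modification, 6 were called higher and 11 lower after UVC, with a median of -0.04 with TMM and 0.38 with library totals. RPUSD4, a pseudouridine synthase, fell by 1.59 and MRM2, a ribosomal RNA methyltransferase, fell by 1.2, and with active photolyase against UVC MRM2 rose by 1.05. Of 17 translation factors, 5 were called higher and 6 lower after UVC, with a median of -0.04 with TMM and 0.37 with library totals. The insertase OXA1L (0.72) and the initiation factor MTIF3 (0.85) rose after UVC, and the elongation factor GFM1 (-0.74) and the RNA-binding protein LRPPRC (-0.76) fell.

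Of 13 genes for mitochondrial transcription and RNA processing, 4 were called higher and 8 lower after UVC (median -0.61), and 8 higher and 4 lower with active photolyase against UVC (median 0.68). The transcription factor TFB2M fell by 1.96 after UVC and rose by 1.97 against UVC with active photolyase, and the poly(A) polymerase MTPAP fell by 1.33 after UVC. The mitochondrial RNA polymerase POLRMT rose by 1.03 after UVC. Of the 7 tested regulators of mitochondrial biogenesis, none was called higher and 6 were lower after UVC (median -1.09). GABPB1, a subunit of GABP, fell by 2.78 and NRF1 fell by 2.35, and MYC fell by 1.61. With active photolyase against control, GABPB1 was at -0.79 and NRF1 at -1.15, both called lower. All these values are log2 fold changes with standard errors of 0.05 to 0.09.

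The 80 tested cytosolic ribosomal proteins had 72 rises and 2 falls after UVC (median 0.34), 6 and 3 with active photolyase against UVC (median -0.01), and 76 and 1 with active photolyase against control (median 0.34). With library totals, which move the median of all genes to -0.34, the middle comparison became 2 rises and 75 falls (median -0.31). Of all genes 27.9% were called higher and 58.2% lower there. The interquartile range of log2 fold changes after UVC was 0.16 for cytosolic ribosomal proteins, 0.54 for the mitochondrial ones and 1.29 for all genes. RPS27 rose by 0.67 and RPS28 by 0.62 after UVC. Of the 13 messenger RNAs of the mitochondrial genome, 3 were called higher and 4 lower after UVC, with a median of -0.12 with TMM and 0.30 with library totals. MT-CYB, which encodes cytochrome b, was called lower at -0.42 (edgeR adjusted p = 4.97e-04) with TMM but not with library totals, at -0.01, and MT-ND1 was called higher at 0.30. Mitochondrially encoded messages took 4.089% and 3.212% of counts with active photolyase, 5.131% and 5.283% after UVC, and 3.321% and 3.918% in control.

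**Figure D5:**
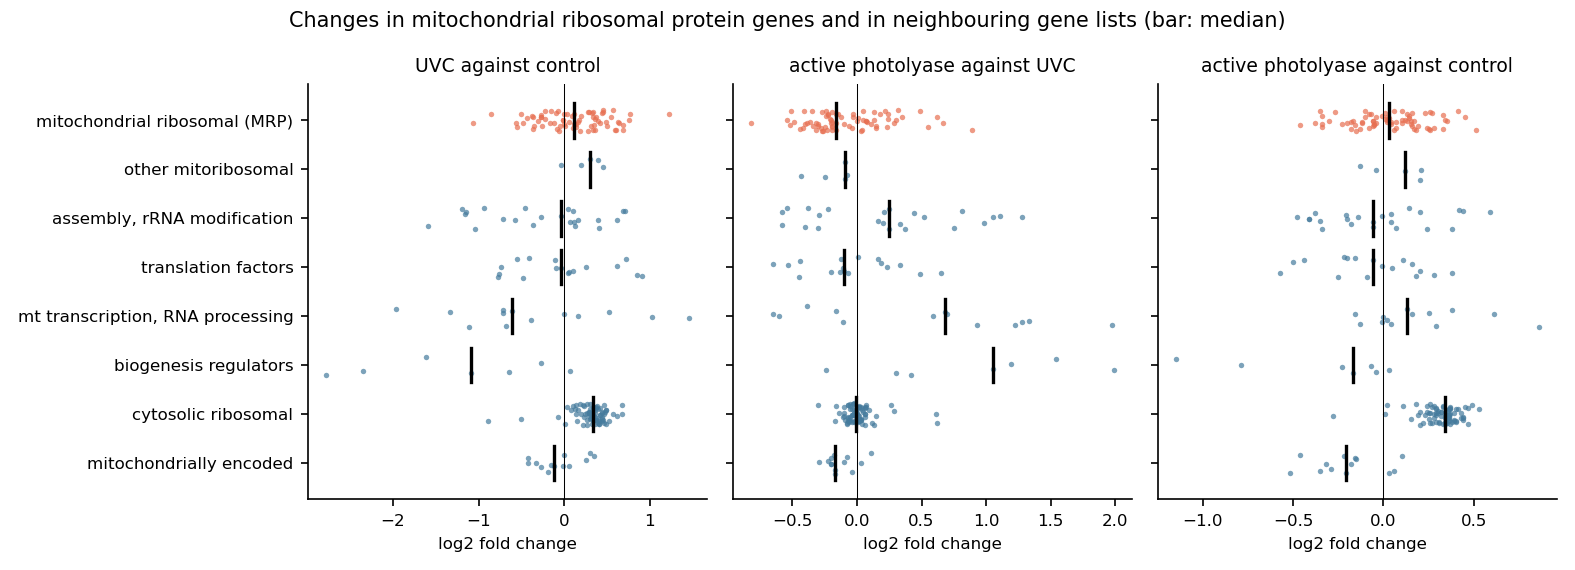
Log2 fold change (horizontal axis, TMM scale) of each tested gene in the mitochondrial ribosomal protein genes and 7 other lists, with a bar at each median, in the 3 comparisons. Cytosolic ribosomal genes have medians of 0.34 in the left and right panels and biogenesis regulators one of -1.09 in the left panel.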

How the data were processed

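RNA of 6 HaCaT samples was sequenced after library preparation by a TruSeq protocol, per the labels. The submitters' processing notes name Bowtie, without a version, and hg19. How reads were counted, with or without strand, and on which annotation is not given in the sources used here. The authors deposited, for 19847 Ensembl genes, read counts and cRPKM, an RPKM corrected for length that could be counted; 354 genes without values were left out. Symbols came from a gene name table that matched 18698 IDs.

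The test of the deposited counts was that of edgeR 4.0.16, run in R 4.3.3 (quasi-likelihood F test, two-sided, 3 group means over all 6 libraries, TMM, Benjamini-Hochberg adjustment over the 11926 genes with at least 1 cRPKM in 2 libraries). TMM factors were 0.954 and 0.957 with active photolyase, 1.18 for both UVC libraries, and 0.887 and 0.885 for control. The script was tested on simulated data. The biological coefficient of variation was 4.62%, with 3 residual and 10.03 prior degrees of freedom. Standard errors were taken from the fold change and its F value. Alternatives were library totals, DESeq2 1.42.0 (size factors and test), limma 3.58.1 on log2(deposited cRPKM + 1 or 0.1), no filter, a filter of 5 cRPKM, a replicate block and leaving out each library.

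The members and gene lists were chosen with earlier results of these data known. Named members were, in each comparison, the 10 largest rises and 10 largest falls among called members whose libraries did not overlap between groups and whose higher group averaged 5 cRPKM or more. Members with a fixed place or outside role, those under the filter, and the 3 highest and 3 lowest by level were named as well. Up to 2 genes each way were to be named from each other list, and not all of them are described. NRF1 in the UVC comparison, SLC5A3 and other neighbours, and the members without a call were named after their values were seen. Gene spans and overlaps came from GENCODE v29, and promoter windows from RefSeq.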

Additional observations from a re-analysis of the deposited data

How the results depend on the processing

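Scaling moved the counts most. With library totals, members called higher and lower were 59 and 3 after UVC (median log2 fold change 0.53), 5 and 58 with active photolyase set against UVC (-0.47), and 37 and 7 with it set against control (0.14). With limma at pseudocounts of 1 and 0.1, which also uses library totals, they were 61 and 4 at both (0.51 and 0.52), 5 and 59 at both (-0.45 and -0.47), and 38 and 7 or 37 and 7 (0.14 at both). Of all 11926 genes limma at a pseudocount of 1 called 7084 higher and 3519 lower after UVC. It called 3309 and 6980 with active photolyase set against UVC, and 5114 and 2752 with it set against control. With no filter on low values the medians were 0.02, -0.12 and -0.02, the last reversed, and relative to all genes they were -0.03, -0.11 and -0.06, so the first turned as well, and active photolyase against control had 14 higher and 19 lower. Of the 18223 genes tested without a filter, 4107 were called higher and 4508 lower in that comparison. With a filter of 5 cRPKM the medians were 0.23 and -0.26 in the first 2 comparisons. DESeq2's test called 14 members higher and 11 lower for active photolyase against control, and 3507 and 3664 of all 11926 genes. The cause was not tested.

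Leaving out each library in turn gave 32 to 37 higher and 15 to 23 lower after UVC (median 0.09 to 0.17), 11 to 15 higher and 33 to 40 lower with active photolyase set against UVC (-0.20 to -0.14), and 14 to 25 higher and 8 to 14 lower with it set against control (0.00 to 0.07). Where a group was left with 1 library, that library was assumed to vary like the others. The lowest median in the last comparison, 0.00, came without control replicate 2.

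The labels do not say whether samples of the same replicate number belong together, and no pairing was used in the main test. Same-numbered deviations correlated at -0.019 (UVC and control), 0.0463 (active photolyase and control) and 0.181 (active photolyase and UVC). With 2 libraries per group these values cannot decide whether the samples were paired. With the replicate block the members' counts were 36 and 21, 15 and 39, and 21 and 14. Those of all 11926 genes were 5086 and 5152, 4690 and 4790, and 3981 and 3956.

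Among single genes, 53 values under alternatives turned sign where the gene was called under at least 1 of the 2 settings, all with library totals or limma. In 31 further values the sign turned but neither setting gave a call, 13 of them with library totals or limma. With library totals, limma at 1 and limma at 0.1, the reversed log2 fold changes after UVC were 0.04, 0.03 and 0.03 for MRPL10, 0.04, 0.04 and 0.05 for MRPL3, 0.40, 0.39 and 0.40 for MRPL37, 0.05 in each for MRPL39, 0.15, 0.14 and 0.15 for MRPL58, 0.14 in each for MRPS18A, 0.15, 0.14 and 0.15 for MRPS22, and 0.36, 0.33 and 0.35 for MRPS27. For active photolyase against UVC they were -0.07 in each for GFM1, -0.12, -0.11 and -0.12 for LRPPRC, -0.06 in each for MRPL18, -0.00 in each for MRPL32, -0.02, -0.01 and -0.01 for MRPL47, -0.26, -0.25 and -0.26 for MRPS12, -0.07 in each for MRPS17, -0.19 in each for MRPS18A, -0.17 in each for MRPS18C (not called with library totals or TMM), and -0.16, -0.15 and -0.16 for MRPS22.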
